A study of Mus musculus with 24 samples.

Results

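The 10 genes described here, Scd1, Cd36, Retn, Lpl, Pnpla2, Adipoq, Fabp4, Cidec, Lep and Pparg, are genes of fat cells and of lipid handling, read in the mouse thymus. All gene probes of the array whose gene name was 1 of the 10 were taken, which gave 16 probes of 41174, and 10 gene names of 28786. All 10 passed the filter on dim probes, through a rule over all 24 arrays, and were among the 24784 genes tested. For a gene with several probes the brightest probe stands for it. By the RefSeq annotation of GRCm38.p6, Lep, Pparg and Cidec lie on chromosome 6 (29060221 to 29073876, 115360879 to 115490404 and 113424634 to 113435760) and Lpl and Retn on chromosome 8 (68880555 to 68906932 and 3655770 to 3659818). Scd1 lies on chromosome 19 (44394450 to 44407709), Cd36 on 5 (17781690 to 17888959), Pnpla2 on 7 (141455188 to 141460743), Adipoq on 16 (23146536 to 23157968) and Fabp4 on 3 (10204342 to 10208616). The names were chosen by function and not by a measured threshold, but with earlier results of these data known.

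Fat cells store triglyceride in a droplet. Lipoprotein lipase (Lpl) frees fatty acids from circulating lipoproteins at the vessel wall, Cd36 helps carry them into the cell and Fabp4 binds them inside. Scd1 desaturates fatty acids, Cidec coats and enlarges the droplet, and Pnpla2 starts the breakdown of its triglyceride. Adipoq, Lep and Retn encode the secreted proteins adiponectin, leptin and resistin, and Pparg is the nuclear receptor that drives fat cell formation and many of these genes. The thymus lies in fat that is in part brown in the mouse, and fat takes the place of lymphoid tissue in it with age.

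Thymus RNA of 24 mice was hybridised on 2-colour arrays, 6 mice of each of 4 genotypes. All mice were C57BL/6 and 15 weeks old, and each genotype had 3 females and 3 males, with no label that ties a sex to a mouse. The groups were wild type, p27 knockout, stathmin knockout and the double knockout of both, made to study how p27Kip1 (gene Cdkn1b), an inhibitor of cyclin-dependent kinases, and stathmin (gene Stmn1), which destabilises microtubules, control proliferation. The thymus carried Cy5 on every array. A pool of RNA from fibroblasts of all the genotypes carried Cy3, so each log2 ratio sets thymus over fibroblasts. The labels name knockout mice with no tissue-restricted driver, and the sources used here do not say which parts of the genes were deleted.

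The libraries differed before any genotype was compared. The 99th percentile of Cy5 intensity, the brightness of an array, ran from 19.4 to 171 kilo-units in the p27 knockout, 56.3 to 286 in wild type, 131 to 340 in the stathmin knockout and 200.2 to 320 in the double knockout. The dimmest were p27 knockout replicates 6 and 5, at 19.4 and 50.7. Their mean correlation with the ratios of the remaining arrays was 0.21 and 0.59, and that of every other array lay between 0.78 and 0.87. Markers of double-positive thymocytes, the main cell of the thymus, had a median log2 ratio of 0.051 in p27 knockout replicate 6 and of 6.05 to 6.68 in the other 5 mice of that genotype, so that array goes against its tissue label. The main results with the p27 knockout are therefore given with and without replicates 5 and 6. On the best separating probes Stmn1 read 3.10 ± 0.28 (SD, n = 6) in wild type and -2.95 ± 0.75 in the stathmin knockout, and Cdkn1b 1.80 ± 0.35 (n = 5) in wild type and 0.30 ± 0.57 (n = 6) in the p27 knockout. Every one of the 6 slides carried all 4 genotypes, in the same order, so place on the slide and genotype cannot be told apart.

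Promoters are shown for Cd36 and Pnpla2, which changed in both comparisons described below that passed for several members, and for Adipoq and Lep, which passed in neither or in only 1. Each runs from 250 bases before to 50 after a transcript start that RefSeq lists, which for Cd36 lies inside the gene, 5′ to 3′ on the gene's strand, from RefSeq, build GRCm38.p6. The capitals mark matches to the CCAAT box (CCAAT) or to the C/EBP motif (TTGCNNAA) on either strand.
Cd36 promoter, chr5:17835847-17836146, minus strand: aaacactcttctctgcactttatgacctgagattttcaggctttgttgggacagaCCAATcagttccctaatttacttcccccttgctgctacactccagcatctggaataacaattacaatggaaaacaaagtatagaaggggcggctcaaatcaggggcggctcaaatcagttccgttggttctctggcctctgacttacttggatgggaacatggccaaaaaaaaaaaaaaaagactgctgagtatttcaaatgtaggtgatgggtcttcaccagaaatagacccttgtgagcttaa
Pnpla2 promoter, chr7:141454938-141455237, plus strand: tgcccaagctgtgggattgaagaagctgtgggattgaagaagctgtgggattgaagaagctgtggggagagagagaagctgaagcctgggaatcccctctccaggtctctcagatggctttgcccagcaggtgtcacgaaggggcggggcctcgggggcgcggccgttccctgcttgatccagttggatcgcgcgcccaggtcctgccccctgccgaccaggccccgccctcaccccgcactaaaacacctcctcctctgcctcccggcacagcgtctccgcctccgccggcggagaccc
Adipoq promoter, chr16:23146286-23146585, plus strand: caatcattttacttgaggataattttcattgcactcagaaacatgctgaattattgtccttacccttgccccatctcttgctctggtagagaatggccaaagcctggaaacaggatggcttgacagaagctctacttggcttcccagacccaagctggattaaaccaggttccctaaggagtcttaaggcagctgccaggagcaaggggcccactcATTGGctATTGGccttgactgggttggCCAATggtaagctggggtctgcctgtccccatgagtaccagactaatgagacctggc
Lep promoter, chr6:29059971-29060270, plus strand: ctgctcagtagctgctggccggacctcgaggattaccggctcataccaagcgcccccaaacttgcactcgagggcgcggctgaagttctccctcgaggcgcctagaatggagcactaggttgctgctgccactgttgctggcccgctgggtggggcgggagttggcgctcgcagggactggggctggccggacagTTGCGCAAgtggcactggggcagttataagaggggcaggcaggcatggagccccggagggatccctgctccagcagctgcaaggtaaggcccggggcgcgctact

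The table of promoters held 7 of the 10 genes, with 10 promoters. Cd36 had 1 CCAAT box, 195 bases before that transcript start, and Adipoq had 3, beginning 34, 27 and 7 bases before it. Lep had a C/EBP match 55 bases before the start. The Pnpla2 window held none of the motifs searched, which besides these were TATAAA and the direct repeat that nuclear receptors of the Pparg kind bind, AGGNCA in tandem with 1 base between. No member promoter held the direct repeat. Over 32851 promoters of that length, 37.4% held a CCAAT box, 10.8% a C/EBP match, 13.6% TATAAA and 0.381% the direct repeat. Of the 3 Pparg promoters, the one at chr6:115421816-115422115 held 2 C/EBP and 2 CCAAT matches. The one at chr6:115362099-115362398 held a CCAAT box and a TATAAA match, both on the other strand, and the one at chr6:115360894-115361193 held none. Of the 2 Cidec promoters the one at chr6:113434715-113435014 held 1 C/EBP match. These are matches of letters only.

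In every member the stathmin knockout had the highest mean of the 4 genotypes and the p27 knockout the lowest. Values are log2 ratios to the fibroblast pool, given as the lowest, median and highest of the mice of a genotype.

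Fatty acid uptake and binding is served by Fabp4, Cd36 and Lpl. Fabp4 read 3.15, 4.45 and 6.25 in wild-type mice, -0.61, 3.43 and 4.79 in p27 knockouts, 5.16, 6.36 and 7.03 in stathmin knockouts and 4.05, 5.17 and 6.76 in double knockouts. All 6 stathmin knockout mice lay above all 6 p27 knockout mice, while wild type overlapped with each of the knockouts. The Fabp4 probe was saturated on 1 of the 24 arrays. Cd36 read 1.96, 2.83 and 4.09 in wild-type mice, -2.20, 1.59 and 3.26 in p27 knockouts, 3.36, 4.28 and 4.77 in stathmin knockouts and 2.10, 3.52 and 4.27 in double knockouts. Here too the stathmin and p27 knockouts did not overlap, though the lowest stathmin knockout mouse and the highest p27 knockout mouse were 3.36 and 3.26. Lpl read 0.19, 1.65 and 2.47 in wild-type mice, -0.63, 0.80 and 2.07 in p27 knockouts, 2.05, 3.28 and 4.04 in stathmin knockouts and 1.05, 1.80 and 3.50 in double knockouts. Its p27 and stathmin knockouts overlapped narrowly, at 2.07 and 2.05.

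Scd1, the desaturase, was the member whose ratio differed most between the p27 and stathmin knockouts, where in Cy5 alone it was Retn. It read 2.02, 3.69 and 5.43 in wild type, 4.96, 5.64 and 7.32 in the stathmin knockout and 3.34, 4.66 and 6.30 in the double knockout. In the p27 knockout it read 1.83, 3.52, 0.88, 1.89 and 0.039 in replicates 1, 2, 3, 5 and 6, and the spot of replicate 4 was left out as an outlier. Every stathmin knockout mouse was above every p27 knockout mouse by more than 1 log2 unit.

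Of the droplet genes, Pnpla2 read 2.06, 1.67, 1.64, 2.84 and 1.60 in wild-type replicates 2 to 6, with replicate 1 left out as an outlier. It read -0.098, 1.80 and 2.38 in the p27 knockout, 2.59, 3.54 and 4.25 in the stathmin knockout and 1.75, 2.73 and 3.66 in the double knockout. The stathmin knockout lay wholly above the p27 knockout, and of the wild-type mice only the one at 2.84 reached into the range of the stathmin knockout. Cidec read 4.83, 5.99 and 6.23 in wild-type mice, -0.065, 5.47 and 7.06 in p27 knockouts, 5.58, 6.89 and 7.23 in stathmin knockouts and 5.22, 5.88 and 6.67 in double knockouts. For this droplet coat gene the p27 knockout spanned the whole ranges of wild type and of the double knockout.

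The hormone genes overlapped more. Adipoq read 4.64, 5.45 and 5.74 in wild-type mice, -0.13, 5.19 and 6.41 in p27 knockouts, 4.92, 5.90 and 6.57 in stathmin knockouts and 4.74, 5.31 and 5.64 in double knockouts. Retn read 2.22, 3.57 and 4.16 in wild-type mice, -0.13, 1.59 and 4.66 in p27 knockouts, 3.38, 4.39 and 5.57 in stathmin knockouts and 3.02, 3.65 and 4.24 in double knockouts. Its probe was well above background on 5 of the 6 p27 knockout arrays and on all others. Lep, the leptin gene, read 0.85, 1.59 and 1.86 in wild-type mice, 0.38, 0.98 and 1.57 in p27 knockouts, 0.25, 2.05 and 2.72 in stathmin knockouts and 1.31, 1.81 and 2.12 in double knockouts. The reference signal of Lep was not well above background on any of the 24 arrays, so its ratio compares thymus with background. Pparg, the regulator, read -0.65, 0.18 and 0.90 in wild-type mice, -0.92, 0.16 and 0.27 in p27 knockouts, 0.21, 1.14 and 1.53 in stathmin knockouts and -0.36, 0.51 and 1.09 in double knockouts.

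**Figure D1:**
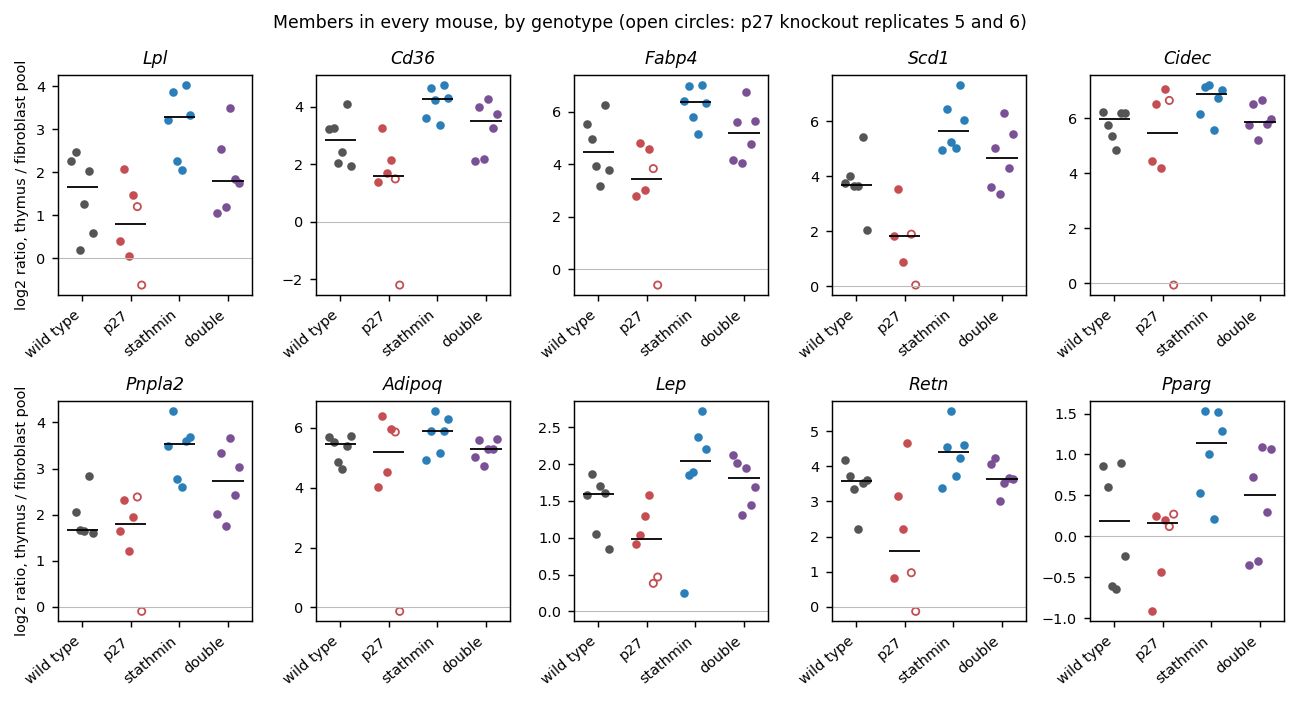
Log2 ratio of thymus over the fibroblast pool (vertical axis) of the 10 members in every mouse, by genotype (horizontal axis). Each point is 1 mouse, bars are medians, and open circles are p27 knockout replicates 5 and 6. The stathmin knockout has the highest median in every panel, and p27 knockout replicate 6 sits lowest in 8 of the 10 members.

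The same mice were high or low for most members. Double knockout replicate 4 was highest of its genotype for 7 members and replicate 3 lowest for 7, stathmin knockout replicate 4 was lowest for 6 and replicate 5 highest for 5, and wild-type replicate 5 was highest for 5. Over the 24 arrays the median ratio of the members ran from 1.99 to 3.81 in wild-type mice, -0.11 to 3.20 in p27 knockouts, 3.53 to 4.74 in stathmin knockouts and 2.61 to 4.12 in double knockouts. A member's correlation with the mean of the other 9 ran from 0.61 (Lep) to 0.97 (Fabp4), as a description over arrays that share brightness. Without p27 knockout replicates 5 and 6 it ran from 0.52 (Lep) to 0.95 (Fabp4 and Pparg). Skeletal muscle markers had a median log2 ratio of 5.34 in double knockout replicate 4, 4.31 in stathmin knockout replicate 5 and 5.13 in wild-type replicate 5. They were also at 5.55 in double knockout replicate 2, 4.93 in stathmin knockout replicate 6 and 2.80 in p27 knockout replicate 2. In the remaining mice they ran from -1.05 to 0.92. What tissue around the thymus adds to the members was not tested. In whole thymus, more fat cells and more RNA per fat cell cannot be told apart.

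Loss of stathmin was set against wild type. All 10 members read higher in the stathmin knockout, with a median difference of 1.12 on the log2 scale against -0.022 over all genes tested, and none passed the threshold (limma, lowest adjusted p = 1.00). In this comparison 0% of all genes passed, and 46% of all genes lay above 0. By unadjusted p under 0.05, 6 members were higher, where 2.43% of all genes were. Scd1 read 2.09 ± 0.60 (SE) higher, a 4.27-fold difference, Fabp4 1.68 ± 0.71, Lpl 1.66 ± 0.50, Pnpla2 1.43 ± 0.42 and Cd36 1.32 ± 0.62, each above 0 on every slide with a value. Retn read 0.91 ± 0.56 higher, Cidec 0.88 ± 0.77, Pparg 0.87 ± 0.34, Adipoq 0.49 ± 0.69 and Lep 0.44 ± 0.31, above 0 on 4 or 5 of 6 slides. The median over members was above 0 on 5 of 6 slides, from -0.070 to 1.80. No member separated the genotypes without overlap, where 0.133% of all genes were higher without overlap.

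Markers of other cell types also read higher, none of them past the threshold. All 7 endothelial markers read higher in the stathmin knockout, and their summed Cy5 signal ran from 27.3 to 109 kilo-units there and from 8.57 to 65.0 in wild type. All 6 brown fat markers read higher, with sums of 299 to 1644 against 44.6 to 838, and all 6 macrophage markers, with sums of 36.6 to 236 against 12.3 to 146. All 3 lymph node stroma markers and all 5 B cell markers read higher too. The remaining lists were more mixed. Higher were 4 of 4 medullary and 4 of 5 cortical epithelium markers and 6 of 8 adipose progenitor and mesenchyme markers. So were 4 of 6 skeletal muscle and 2 of 4 parathyroid and thyroid markers. Of 8 double-positive thymocyte markers 2 read higher, and their sums were 559 to 1160 against 360 to 1370. The sums are of Cy5 intensity as read, so they also follow the brightness of the array. The lowest wild-type sums of these 4 lists were all from replicate 4, the dimmest wild-type array, at 56.3 kilo-units. The part of these cells in the members' differences was not tested.

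Loss of p27 was set against wild type. All 10 members read lower in the p27 knockout, with a median difference of -0.91 against 0.14 over all genes, and none passed (lowest adjusted p = 0.0809, for Scd1). Of all genes 0.00807% passed and 60% lay above 0. By unadjusted p, 4 members were lower, where 8.18% of all genes were. Scd1 read -2.11 ± 0.63 (SE), 4.33-fold lower, Fabp4 -1.54 ± 0.71, Cd36 -1.54 ± 0.62 and Retn -1.49 ± 0.56. Here the reference Cy3 of Scd1 was 15559 to 21959 units on p27 knockout arrays and 5047 to 19778 on wild-type arrays. Its fold is therefore not of thymus signal alone. Scd1, Fabp4 and Cd36 were below wild type on every slide with a value. Scd1 passed without wild-type replicate 6 (adjusted p = 0.0402) or without p27 knockout replicate 1, 2 or 4 (0.0493, 0.0490 and 0.0389). As p27 knockout replicate 4 had no Scd1 value, leaving it out kept the difference at -2.11, and only the p changed. Retn passed without p27 knockout replicate 4 (0.0322). The other 6 members read between -0.97 and -0.23. The median over members was -0.41 without p27 knockout replicate 6. Without replicates 5 and 6 of that genotype it was -0.42, with Scd1 at -1.67 (adjusted p = 0.374), Fabp4 at -0.81, Retn at -0.73 and Cd36 at -0.72. Adipoq and Cidec, the fat cell genes with the widest spread in the p27 knockout, were below wild type on 3 of 6 slides and read 0.052 and 0.0042 without p27 knockout replicate 6.

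The p27 and stathmin knockouts differed in most members. Scd1, Fabp4, Cd36, Retn, Lpl, Pnpla2, Pparg and Lep, 8 of the 10, were lower in the p27 knockout (limma adjusted p under 0.05), where 5.78% of all genes were lower. Over the members the median difference was -2.11 against 0.13 over all genes. Scd1 fell by 4.21 ± 0.63 (SE), 18.5-fold (adjusted p = 0.00221), and was lower on 5 of 5 slides. Its reference Cy3 was not steady, at 15559 to 21959 units on p27 knockout arrays and 1675 to 10881 on those lacking stathmin alone. For Fabp4 it was 12638 to 24670 and 2085 to 10881. For Lpl it was 21835 to 27720 and 9467 to 22357. The Scd1, Fabp4 and Lpl differences therefore include a shift of the reference and are not of thymus signal alone. The reference of Retn, Adipoq and Cidec was instead lower on the p27 knockout arrays. Fabp4 fell by 3.22 ± 0.71, 9.32-fold (adjusted p = 0.00992), Cd36 fell by 2.86 ± 0.62, 7.26-fold (0.00985), and Pnpla2 fell by 1.82 ± 0.40, 3.54-fold (0.0102), each on 6 of 6 slides. These 4 members did not overlap between the genotypes, where 1.20% of all genes were lower without overlap. Lpl fell by 2.37 ± 0.50 (adjusted p = 0.00985) and Pparg fell by 1.10 ± 0.34 (0.0308), both on 6 of 6 slides, and Retn fell by 2.40 ± 0.56 (0.0115) and Lep fell by 0.94 ± 0.31 (0.0414), both on 5. Cidec read -1.85 ± 0.77 and Adipoq -1.35 ± 0.69, which did not pass (adjusted p = 0.0877 and 0.158).

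With p27 knockout replicates 5 and 6 left out, Scd1, Cd36, Pnpla2 and Fabp4 passed, 4 of the 10, where 0.504% of all genes were lower. Scd1 was then at -3.76 (adjusted p = 0.0258), Fabp4 at -2.49, Cd36 at -2.04 and Pnpla2 at -1.61 (0.0487 each). Lpl, Pparg and Retn were at -2.13, -1.24 and -1.64 (0.0517, 0.0635 and 0.0681), and Lep at -0.67 (0.190). Leaving out any single mouse kept Scd1, Cd36, Retn, Lpl, Pnpla2 and Fabp4 past the threshold in all 24 fits. Lep was lost without p27 knockout replicate 5 or 6 or stathmin knockout replicate 2, 4, 5 or 6 (adjusted p up to 0.108), and Pparg without p27 knockout replicate 1 or 3 or stathmin knockout replicate 2, 5 or 6 (up to 0.0785). With the brightness of the array as a covariate no member passed (lowest adjusted p = 0.817) and 0% of all genes did, and the p27 knockout arrays were dimmer as a group, so brightness and genotype cannot be told apart here. Fitted to the mice of these genotypes alone, 1 member passed, Scd1 (adjusted p = 0.0324), where 0.137% of all genes were lower.

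Other cell types differed here too. Past the threshold, 3 of 6 macrophage and 1 of 6 brown fat markers were lower in the p27 knockout, where 5.78% of all genes were. Of 7 endothelial and 8 double-positive thymocyte markers 0 were lower. Adipose progenitor and mesenchyme markers went both ways, with 2 of 8 higher in the p27 knockout and 1 lower. The summed Cy5 signal ran from 2.50 to 48.7 kilo-units for macrophage markers and from 5.25 to 19.6 for endothelial markers there. These sums also follow brightness, and the p27 knockout arrays were dimmer as a group. In the double against the p27 knockout, 2 of 6 macrophage and 2 of 7 endothelial markers were higher and 0 of 8 thymocyte markers. Of all genes 9.70% were higher. Also higher were 1 of 6 brown fat, 2 of 4 medullary and 1 of 5 cortical epithelium markers. Of 8 adipose progenitor and mesenchyme markers 3 were lower and 1 higher, and 1 of 4 parathyroid and thyroid markers was lower. With p27 knockout replicates 5 and 6 left out, 0 macrophage, 1 brown fat, 0 endothelial and 0 thymocyte markers were lower than in the stathmin knockout. Of all genes 0.504% were lower in that fit. The double knockout was then higher than the p27 knockout in 1 macrophage and 1 endothelial marker, where 3.97% of all genes were higher. It was lower in 5 of the 8 thymocyte markers, whose median was -0.79 and had been -0.071. The share of all genes that were lower in that fit is not given here. What these cell types add to the members' differences was not tested.

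The double knockout lay between the single knockouts. Against the p27 knockout, Scd1, Fabp4, Cd36, Retn and Pnpla2, 5 of the 10, were higher, where 9.70% of all genes were. The median over members was 1.21 against -0.16 over all genes. Scd1 rose by 3.05 ± 0.63 (SE), 8.30-fold (adjusted p = 0.00431), Fabp4 by 2.10 ± 0.71 (0.0311), Cd36 by 1.97 ± 0.62 (0.0232), Retn by 1.75 ± 0.56 (0.0253) and Pnpla2 by 1.13 ± 0.40 (0.0403). The Scd1 fold again includes a shift of the reference, whose Cy3 was 4975 to 13647 units on double knockout arrays. Cy3 of Lpl was 14232 to 21932 units there, and Cy3 of Fabp4 also moved against Cy5 over all arrays, as given below. Lep read 0.81 ± 0.31 and Lpl 1.22 ± 0.50 higher, just short of the threshold (0.0542 and 0.0692). The second Lpl probe passed, at 1.41 (limma adjusted p = 0.0117 over all probes). Scd1 was higher on 5 of 5 slides and Pnpla2 on 6 of 6, but Fabp4 on 4 of 6. This comparison shares the p27 knockout mice with the one above.

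Without p27 knockout replicates 5 and 6, Scd1 alone passed of the members (2.61, adjusted p = 0.0269), where 3.97% of all genes were higher. Fabp4, Cd36, Retn and Pnpla2 were then at 1.37, 1.15, 0.99 and 0.91 (0.110, 0.0962, 0.182 and 0.0936). Scd1 was the only member past the threshold in all 24 fits that leave out 1 mouse. Without p27 knockout replicate 6 the count was 2, and it was 2 without double knockout replicate 4 and 3 without double knockout replicate 2 or 6. Cd36 was lost without double knockout replicate 4 (adjusted p = 0.0538) and Retn without p27 knockout replicate 5 or 6 (0.0596 and 0.0584). Fabp4 was lost without p27 knockout replicate 6 or double knockout replicate 2, 4 or 6 (up to 0.0763), and Pnpla2 without p27 knockout replicate 3 or 6 or double knockout replicate 2, 4, 5 or 6 (up to 0.0971). With brightness as a covariate 0 members passed, where 0% of all genes did. Fitted to the mice of these genotypes alone 2 passed, Scd1 and Lep, where 5.74% of all genes were higher. In the authors' deposited table, which follows brightness, 9 members were higher, where 51.3% of all genes were, and 7 were lower in the p27 knockout against wild type, where 17.4% were.

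Against wild type the double knockout read higher in 9 of 10 members, where 44.4% of all genes did, by a median of 0.37 against -0.036 over all genes, and none passed (lowest adjusted p = 1.00, with 0.0121% of all genes past the threshold). By unadjusted p under 0.05 no member was higher, where 3.62% of all genes were. Scd1 read 0.94 ± 0.60 (SE) higher and Pnpla2 0.74 ± 0.42, above 0 on 3 of 6 and 4 of 5 slides, and Adipoq was at -0.037 ± 0.69. Against the stathmin knockout all 10 members read lower, where 45.6% of all genes lay above 0, by a median of -0.68 against -0.022, from -1.15 for Scd1 and Lpl to -0.13 for Lep, and none passed (lowest adjusted p = 1.00, with 0.00807% of all genes past the threshold). By unadjusted p 1 member was lower, where 0.553% of all genes were. The interaction, which tests whether loss of both differs from the sum of each loss, passed for 0 of 10 members and 0% of genes. It ran from -0.44 for Lpl to 0.96 for Scd1 (lowest adjusted p = 0.536), and 0 members had an unadjusted p under 0.05, where 17.8% of all genes did. Its median over members was 0.35, and -0.30 without p27 knockout replicate 6.

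**Figure D2:**
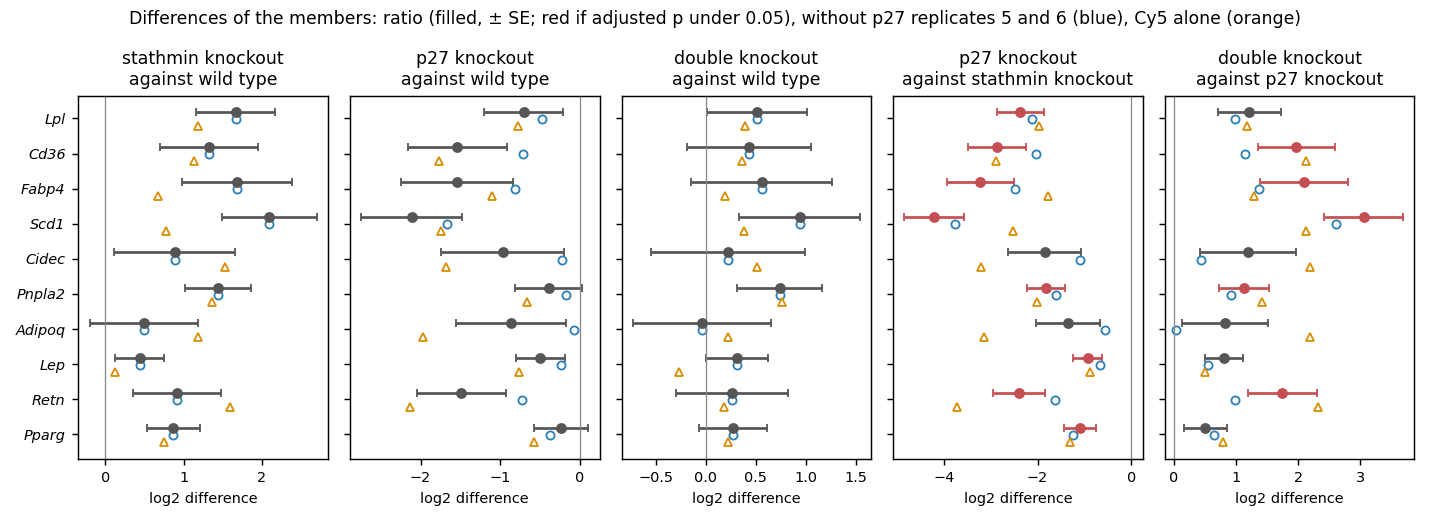
Log2 differences of the 10 members (horizontal axis) in 5 comparisons. Filled points are the ratio-based differences with their SE, red where adjusted p was under 0.05, blue circles leave out p27 knockout replicates 5 and 6, and orange triangles use the Cy5 channel alone. Scd1 and Fabp4 lie nearer 0 in Cy5 alone than in the ratio, at 0.78 and 0.67 against 2.09 and 1.68 in the stathmin knockout against wild type.

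The ratio of a member depends on its reference signal, which came from the same RNA on every array. The Cy3 intensity of Cd36, Pparg and Pnpla2 stayed within 1.22-fold, 1.19-fold and 1.34-fold over the arrays. That of Fabp4 ran from 2085 to 24670 units, 11.8-fold, and was lower where Cy5 was higher (Pearson r = -0.71, adjusted permutation p = 7.5e-05, Spearman rho = -0.94, adjusted permutation p = 1.67e-05, n = 24 arrays). That of Scd1 ran over 13.1-fold in the same direction (r = -0.76, adjusted permutation p = 0.00015, rho = -0.97, adjusted permutation p = 1.67e-05, n = 23), and that of Lpl over 2.93-fold (r = -0.75, adjusted permutation p = 0.00015, rho = -0.95, adjusted permutation p = 1.67e-05). For Adipoq, Cy3 ran from 249.8 to 1813 units, 7.26-fold, and was higher where Cy5 was higher (r = 0.91, adjusted permutation p = 3.33e-05, rho = 0.94, adjusted permutation p = 1.67e-05). Retn (r = 0.93, rho = 0.96) and Cidec (r = 0.87, rho = 0.91), with the same adjusted permutation p values as Adipoq, went the same way over 6.93-fold and 5.41-fold. For Cd36 the relation was weak (r = -0.43, adjusted permutation p = 0.0493, rho = -0.46, adjusted permutation p = 0.0375). Pnpla2, Lep and Pparg had r of -0.16, -0.038 and -0.054 (adjusted permutation p = 0.586, 0.861 and 0.861) and rho of -0.20, 0.073 and 0.026 (0.440, 0.815 and 0.904). These are 10 relations between log2 intensities that were not normalized, with 100000 resamples, two-sided, and 1e-05 is the smallest raw p they can give. The permutation shuffled all arrays freely, without regard to genotype or slide. The p values therefore do not separate these relations from differences in brightness or genotype that the arrays share.

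Without the 2 arrays farthest from the median Cy5, r was -0.81 for Fabp4, -0.80 for Scd1 and Lpl, 0.96 for Adipoq, 0.94 for Retn and Cidec, -0.44 for Cd36, -0.058 for Pnpla2, -0.057 for Lep and -0.20 for Pparg. Within single genotypes of 6 mice (5 for 1 group of Scd1) r ran from -0.79 to -0.75 for Fabp4, -0.96 to -0.72 for Scd1 0.76 to 0.97 for Adipoq and -0.90 to -0.33 for Cd36. The cause of these shifts in the reference channel was not tested.

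**Figure D3:**
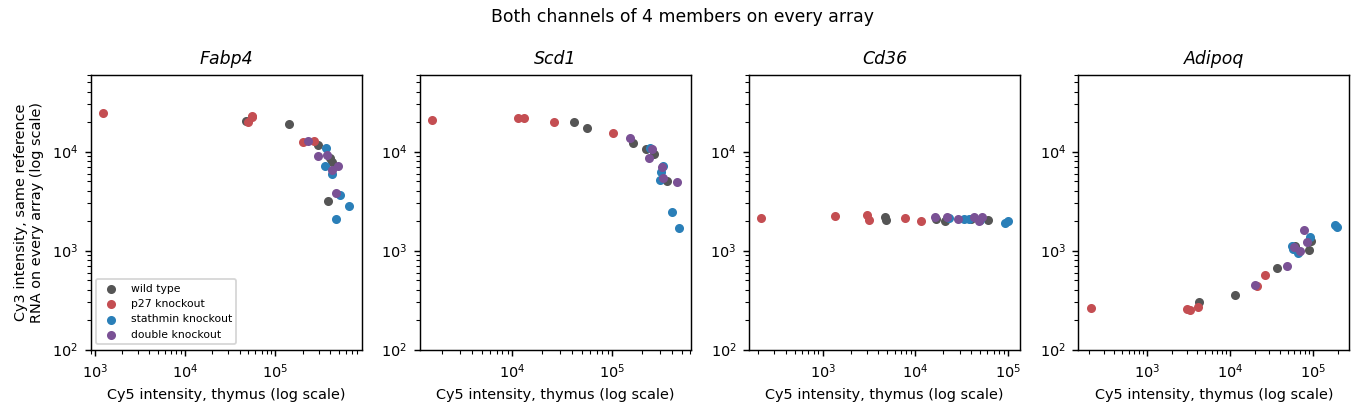
Cy3 intensity, from the same reference RNA on every array (vertical axis, log scale), against Cy5 intensity of the thymus (horizontal axis, log scale), for 4 members with 1 point per array. Cy3 falls over 11.8-fold for Fabp4 and 13.1-fold for Scd1 and rises over 7.26-fold for Adipoq as Cy5 rises, while Cd36 stays within 1.22-fold.

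Taken from Cy5 alone, with quantile normalization, the members changed rank. In the stathmin knockout against wild type Cidec read 1.53 and Retn 1.59 higher, Adipoq 1.18, Scd1 0.78 and Fabp4 0.67, while the members with a steady reference stayed close to their ratios, with Pnpla2 at 1.36, Cd36 at 1.13 and Pparg at 0.74. The median over members was 1.16, and none passed, where 0.00403% of all genes did. In the p27 against the stathmin knockout all 10 members were lower past the threshold, where 8.6% of all genes were, from -0.88 for Lep to -3.71 for Retn, with Cidec at -3.21 (adjusted p = 0.0127) and Adipoq at -3.15 (0.0121). Without p27 knockout replicates 5 and 6 there were 6, Scd1, Cd36, Retn, Pnpla2, Adipoq and Cidec, where 1.12% of all genes were lower. Fabp4 was then at -1.07, Lpl at -1.64 and Pparg at -1.22 (0.0564, 0.0515 and 0.0587). In the double against the p27 knockout 7 members were higher, where 11.7% of all genes were, and 2, Scd1 and Pnpla2, without those replicates, where 4.27% were.

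The spread between mice of a genotype was larger for most members than for most genes. The SD of the log2 ratio within genotypes had a median of 1.07 over the members and 0.52 over all genes tested. It ran from 0.55 for Lep, at the 54.7th percentile of genes, to 1.43 for Cidec, at the 98.7th. Without p27 knockout replicates 5 and 6 these medians were 0.80 and 0.38. By genotype, the median SD of the members was 0.69 in wild-type mice, 1.53 in p27 knockouts, 0.68 in stathmin knockouts and 0.70 in double knockouts, against 0.39, 0.70, 0.38 and 0.30 over all genes. The members' Cy5 alone had a median SD of 1.01, against 0.61 over all genes. Their Cy3, from the same RNA on every array, had a median SD of 0.38, against 0.14 over all genes. It ran from 0.070 for Cd36 to 0.76 for Fabp4, so the spread of the ratio is not between mice alone.

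The second probes of Cd36, Lpl, Pnpla2 and Retn and both other probes of Fabp4 gave the same signs in the 4 comparisons with the largest differences. In the p27 against the stathmin knockout they read -2.80 for Cd36, -2.15 for Lpl, -2.49 for Pnpla2, -2.83 for Retn and -3.89 and -3.31 for Fabp4 (the first saturated on 1 array, the second on 0), each past the threshold over 35185 probes (highest adjusted p = 0.0127, for Retn). Against wild type the second Pnpla2 probe read -1.60 in the p27 knockout, where the brightest read -0.39, and neither passed. In the interaction the signs differed for Lpl and Pnpla2. Their second probes read 0.37 and 1.19 there, where the brightest read -0.44 and -0.31, and none of these passed.

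The array carried fat cell and brown fat markers in every genotype. Ucp1, the uncoupling protein of brown fat, read 5.29 ± 0.45 (SD, n = 6) in wild-type mice, 4.39 ± 2.42 in p27 knockouts, 5.71 ± 0.53 in stathmin knockouts and 5.20 ± 0.52 in double knockouts, with no difference past the threshold. The median of 7 fat cell markers, 4 of them members, ran from 2.47 to 4.28 in wild-type mice, -0.13 to 4.66 in p27 knockouts, 3.71 to 5.57 in stathmin knockouts and 3.02 to 4.59 in double knockouts. The lowest of these, -0.13, was p27 knockout replicate 6.

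A list of 56 other fat and lipid genes in 5 roles was read alongside, all of them tested. In the stathmin knockout against wild type 54 of 56 read higher, by a median of 0.70, where 46% of all genes lay above 0. By unadjusted p under 0.05, 24 were higher, where 2.43% of all genes were. None passed (lowest adjusted p = 0.435, for malic enzyme, Me1, at 1.50). Synthesis of fatty acids and triglyceride had the largest median, 1.14 over 16 genes, with Fasn (fatty acid synthase) at 2.29, Elovl3 and Elovl6 (elongases) at 2.02 and 1.50 and Agpat2 at 1.77. Droplet and lipolysis genes had a median of 0.84, with Fitm2 at 1.00 and Abhd5 (the activator of Pnpla2) at 0.66. Uptake genes were at 0.40, with Acsl1, which activates fatty acids, at 1.63 and Vldlr at 1.00. Hormone genes were at 0.67, with Rbp4 (retinol binding protein) at 1.80 and Nampt at 0.49, and regulators at 0.47, with Cebpb at 1.03 and Mlxipl at 0.95.

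In the p27 knockout against wild type 17 of the 56 read higher, where 60% of all genes did, and the median was -0.51. With 0 past the threshold, 13 were lower by unadjusted p, where 8.18% of all genes were, and 4 were higher. All 16 synthesis genes read lower, by a median of -0.77, with Acaca (acetyl-CoA carboxylase) at -1.63 and Agpat2 at -1.72 (adjusted p = 0.0809 and 0.0822). The median of the 10 regulators was 0.17, with Cebpa at -1.33 and Ppargc1a at 1.26. Gpihbp1, which anchors Lpl to the vessel wall, and Angptl4, which inhibits it, read 0.96 and 1.17 higher (0.0809 and 0.0815). Bscl2 and Lipe (hormone-sensitive lipase) of the droplet list read -0.90 and -0.78, and Lepr, the leptin receptor, and Apln (apelin) -0.69 and 0.90. With the 2 dim p27 knockout mice left out, the 56 had a median of -0.25, the synthesis genes one of -0.53, with 16 of 16 below 0, and the regulators one of 0.015. Against wild type the double knockout was higher in 52 of the 56, by a median of 0.35, with 0 past the threshold. Elovl3 and Fasn were at 1.19 and 1.18, Retnla at 1.02, Nampt at 0.36, Aqp7, a glycerol channel, at 1.04, Abhd5 at 0.30, Klf15 at 0.63, Rxra, the partner of Pparg, at 0.40, Fabp5 at 0.50 and Gpihbp1 at 0.32.

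In the p27 against the stathmin knockout 29 of the 56 were lower and 0 higher past the threshold, where 5.78% of all genes were lower. With p27 knockout replicates 5 and 6 left out 10 were lower, where 0.504% of all genes were. By role the 29 were 13 of 16 synthesis genes, 7 of 11 droplet genes, 4 of 10 uptake genes, 3 of 9 hormone genes and 2 of 10 regulators. Fasn fell by 3.57 (adjusted p = 0.00232), Agpat2 fell by 3.49 (0.00293), Acaca fell by 2.90 (0.00142), Elovl3 fell by 2.78 (0.00519) and Me1 fell by 2.15 (0.00221). Further synthesis genes that were lower included Acly, Acacb, Dgat1, Dgat2, Elovl6, Gpam, Pck1 and Thrsp, between -2.37 and -1.11. Of the droplet list Aqp7 (-2.35), Mgll (-2.33) and Plin1, the perilipin of fat cells (-2.17), were lower, and so were Plin4, Bscl2, Lipe and Fitm2, between -1.74 and -1.23. Acsl1 fell by 3.02 (adjusted p = 0.0135), Slc2a4, the insulin-regulated glucose transporter, fell by 1.72, Fabp5 fell by 1.46 and Slc27a4 fell by 0.89. Rbp4, Lepr, Nampt, Cebpa and Mlxipl fell by 2.49, 1.21, 0.76, 2.09 and 1.49.

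In the double against the p27 knockout 22 of the 56 were higher, where 9.70% of all genes were, and 1, Angptl4, was lower (-1.57, adjusted p = 0.00717). When p27 knockout replicates 5 and 6 were left out, 10 were higher, where 3.97% of all genes were, and 1 was lower. Fasn, Agpat2, Acaca and Elovl3 rose by 2.46, 2.45, 2.00 and 1.95, and Acacb, Acly, Dgat1, Gpam and Me1 by between 0.73 and 1.48. Aqp7, Plin1, Mgll, Bscl2 and Lipe rose by 2.09, 1.67, 1.63, 1.09 and 0.98, and Fabp5 and Slc27a4 by 1.48 and 1.01. Cebpa and Mlxipl rose by 1.65 and 1.17, and Lepr, Nampt, Rbp4 and Retnla by 1.29, 0.63, 1.49 and 1.21. Against the stathmin knockout 0 of the 56 passed, and the interaction passed for 0.

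**Figure D4:**
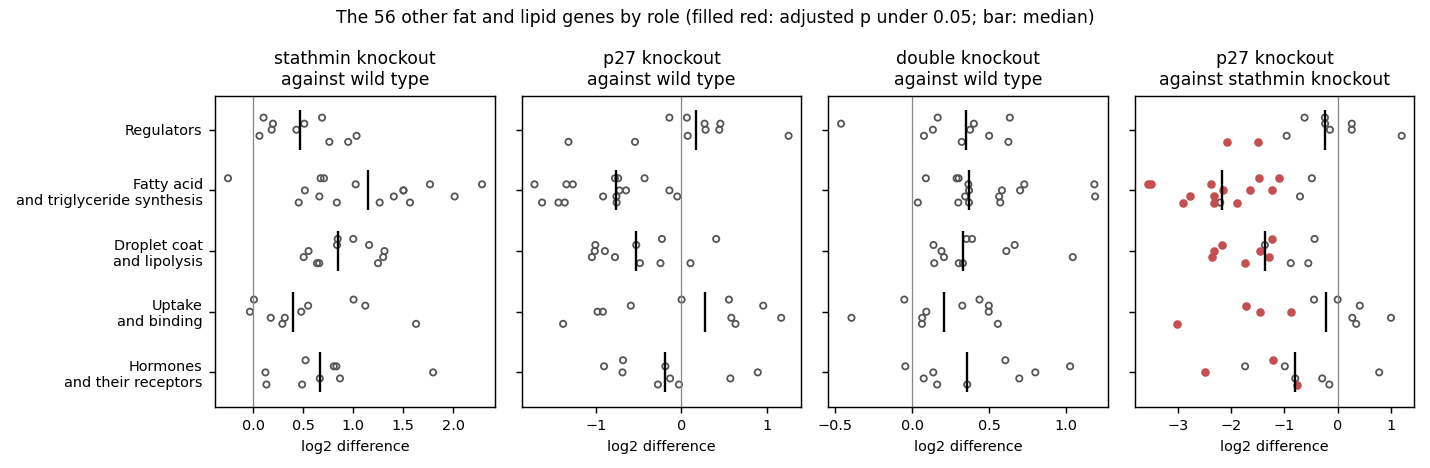
Log2 differences (horizontal axis) of the 56 other fat and lipid genes by role in 4 comparisons. Each point is 1 gene, filled red where adjusted p was under 0.05, and bars are medians. Synthesis genes lie furthest from 0, with a median of 1.14 in the stathmin knockout and -0.77 in the p27 knockout against wild type.

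The genes whose ratio followed the mean of the members most closely over the 24 arrays, of 16141 genes with a curated name, were Acsl1 (r = 0.96), Acacb (0.96), Plin1 (0.96), Plin5 (0.96), a droplet protein of fat-burning tissue, and Mrap (0.96), an accessory protein of the melanocortin receptors. Without p27 knockout replicates 5 and 6 the closest were Aoc3 (0.96), Dgat2 (0.96), Plin5 (0.96), Chpt1 (0.95) and Ntrk2 (0.95). Plin5 was in both sets of 5. The arrays share brightness and tissue makeup, and these correlations are given as descriptions.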

How the data were processed

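Thymus RNA of 24 mice was read on 2-colour Agilent arrays. The members and gene lists were chosen with earlier results of these data known. The authors' scanner files hold spot intensity and local background intensity, written by Agilent Feature Extraction 9.1.3.1 under a protocol named for no background subtraction, per the file headers. The deposited log10 ratio had been detrended and dye-normalized, per the file headers. The sources used here do not say how the authors made their deposited log2 table, which followed the mean brightness of both channels (r of at least 0.980) more than the ratio (at most 0.227). All 24 of its columns were used, as an alternative only. How it was centred is unknown.

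From the intensities, limma 3.58.1 (R 4.3.3) gave log2 ratios after normexp background correction (offset 50), loess within arrays with control spots at no weight, outlier spots left out, and spots of a probe averaged (10 each for Lep and Pparg). Probes with Cy5 well above background on at least 6 of 24 arrays were kept (35185). The accessions of 22951 probes matched GRCm38.p6 symbols, while the deposited name was used for 18223. The limma fit had genotype as its only term over 24 arrays, with Benjamini-Hochberg adjustment over 24784 genes and a threshold of 0.05. The number of arrays limits the precision. Permutation tests used Python 3.11.15. The text names all members, and of the other genes those past the threshold and the 2 with the lowest p of each role against wild type. Leave-one-out fits, blocks, filters, scalings and other sources were tried as alternatives. The combination of Cy5 alone without p27 knockout replicates 5 and 6, and the likeness without them, were chosen after seeing the data.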

Additional observations from a re-analysis of the deposited data

Results flagged for a closer look

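In 4 of 40 groups of 6 or 5 mice, 1 mouse lay far from the rest by Dixon's criterion, which chance alone meets in about 1 group in 20. In the p27 knockout, replicate 6 had the lowest Cd36, at -2.20 with the next mouse at 1.37, the lowest Adipoq, at -0.13 with the next at 4.02, and the lowest Fabp4, at -0.61 with the next at 2.77. This is the dimmest array, and 3 of the 4 values came from it. In the stathmin knockout, replicate 1 had the lowest Lep, at 0.25 with the next mouse at 1.85.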

How the results depend on the processing

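Of the alternative values of single members, 2251 kept their direction and their side of the threshold, 42 newly passed, 68 no longer passed and 39 changed sign. Of the alternative counts and medians, 526 stayed close to the reported one and 25 moved. No member passed in the stathmin or double knockout against wild type or against each other, nor in the interaction, under any alternative run.

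In the p27 knockout against wild type the count of members past the threshold was 7 in the authors' deposited table and 0 to 2 over the fits that leave out 1 mouse. The median was -2.13 with ratios scaled between arrays and -0.031 with brightness as a covariate. Adipoq was at 0.18 with array weights, Pnpla2, Adipoq and Cidec at 0.23, 0.34 and 0.45 with brightness as a covariate, and over single mice left out Adipoq ran from -1.25 to 0.052 and Cidec from -1.42 to 0.0042.

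In the double against the p27 knockout the count was 9 in the deposited table, 2 with scaled ratios, 2 with only the groups compared, 0 with brightness as a covariate (median 0.21), 1 without p27 knockout replicates 5 and 6, 2 in Cy5 alone without them, and 2 to 6 over single mice left out. Adipoq was at -0.082 with array weights, Adipoq, Fabp4 and Cidec at -0.92, -0.11 and -0.87 with brightness, and Adipoq ran from -0.090 to 1.22 over single mice left out. In the p27 against the stathmin knockout the count was 0 with brightness as a covariate (median -0.95), 1 with only the groups compared, 4 without replicates 5 and 6, and 6 to 9 over single mice left out. The median was -3.41 with scaled ratios, and Adipoq and Cidec were at 0.30 and 0.10 with brightness.

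The double knockout against wild type, where no member passed, held most of the changes of sign. Lep was at -0.041 with no background correction, Cidec and Lep at -0.15 and -0.20 in Agilent's own log ratios, Retn, Fabp4 and Cidec at -0.22, -0.16 and -0.57 with scaled ratios, Adipoq and Lep at 0.23 and -0.27 in Cy5 alone with or without replicates 5 and 6 and at 0.61 and -0.38 in the deposited table. Adipoq was at 0.10 with array weights and ran from -0.17 to 0.067 over single mice left out. Cd36, Retn, Fabp4 and Cidec were at -0.10, -0.22, -0.13 and -0.42 with brightness. In the deposited table Fabp4 was at -0.029 in the stathmin knockout against wild type, and Scd1 and Fabp4 at 0.20 and 0.19 in the double against the stathmin knockout, where the median was -1.84 with scaled ratios and Lep ran from -0.45 to 0.041 over single mice left out. The interaction's median was -0.78 with brightness. The cause of these changes was not tested.

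The replicate block gave 8 members in the p27 against the stathmin knockout and 6 in the double against the p27 knockout, as slide as a block did. The main fit did not pair mice by replicate number, as no label ties a number to a shared batch. Deviations of 14 of 36 same-numbered pairs of arrays correlated by over 0.1 (median r = 0.043). That held for 20 of 36 pairs on the same slide (median 0.14) and 52 of 162 pairs that shared neither (median -0.028). Some pairs shared both number and slide, and the main fit had no term for the slide. On each of the 6 slides the arrays of wild type, stathmin and double knockout shared a number, and the p27 knockout array had another. The dim reference limits Lep, and the dim arrays limit every value of the p27 knockout.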
